A study of Rattus norvegicus with 96 samples.

Results

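The comparison described here is that of nicotine (NIC) with saline (SAL) in the nucleus accumbens (NAc) core of female rats. It rests on 15 of the 96 libraries deposited, those of 7 NIC rats (numbers 2 to 8) and 8 SAL rats (numbers 9 to 16), chosen by their labels for sex, region and treatment. NIC rats had received 0.4 mg/kg NIC by injection and SAL rats 1.0 ml/kg saline, daily for 4 days, and tissue was taken on day 17 according to the labels, with no further injection before it. All rats were F1 hybrids of the inbred Fischer-344 and Brown Norway strains from both directions of the cross; which direction a rat came from is not given per sample. The tissue was dissected as a whole, so each library is an average over all its cells, and fewer cells of a type cannot be told apart from less RNA per cell. Each library comes from 1 rat, and SAL rats are the only controls.

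The NAc core is the part of the ventral striatum that surrounds the anterior commissure and is known for its part in turning motivation into action. Most of its neurons are GABA-releasing projection neurons that carry dopamine D1 or D2 receptors and receive dopamine fibres from the ventral tegmental area (VTA). NIC acts on nicotinic acetylcholine receptors, many of them on those dopamine neurons and their endings, and repeated injections are known to leave the locomotor response to a later dose enhanced, which is called sensitization (SST). In the behavioural tests of the study, males of these crosses showed SST and females did not. The rats whose tissue was sequenced were not themselves tested for it. The question of the comparison is which transcripts still differ in the core after the injections have stopped.

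The labelled tissue was checked by marker genes. *Drd1* (dopamine D1 receptor) lay between 67.4 and 156 CPM (the count of a gene scaled to a common library total) and *Ppp1r1b* (the dopamine-regulated phosphatase inhibitor DARPP-32) between 1164 and 2639 CPM in the 15 libraries, whereas *Th* and *Slc6a3*, markers of dopamine neurons, did not exceed 3.87 and 0.919 CPM. The library labelled NAc core of NIC rat 1 was left out: it held *Th* at 331 and *Drd1* at 1.70 CPM, against ranges of 18.0 to 881 and 0.421 to 4.52 CPM in the female VTA libraries. Totals ranged from 15868529 to 21434270 estimated counts, and the ranges of the groups overlapped. One library, NIC 8, stood apart from the other 14 on the first principal component, which held 15.5% of the variance and of which treatment accounted for 0.0801%. The second component held 9.87% of the variance, of which prep batch accounted for 70.1% and treatment for 18.1%. Library prep batch followed treatment closely: NIC rats fell in batches G, H, I and J and SAL rats in J, K and L, so that only batch J held rats of both groups (NIC 7 and 8, SAL 9 and 10). Outside batch J, prep batch and treatment cannot be told apart, and a fit with batch as a term compares only these 4 libraries, of which 1 is NIC 8. In the male NAc core, set beside the female core below, SAL rats fell in batches A, B and C and NIC rats in C and D. No batch held core libraries of both sexes. Prep batch and treatment are thus nearly confounded in males too, and in the differences between the sexes.

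Of 16879 genes tested, 1088 (6.45%) had an unadjusted p under 0.05, the threshold used in the study, of which 485 (2.87%) were higher and 603 (3.57%) lower in NIC. No gene had an adjusted p under 0.05 by edgeR (lowest adjusted p = 0.367), 3 did by DESeq2 and 1 by limma voom. Without SAL 12 edgeR gave 1 such gene, *Llph* (adjusted p = 0.00349), and within batch J 2 (*LOC108348079* and 1 gene with an identifier only; lowest adjusted p = 0.0137), where each group has 2 libraries. The 3 by DESeq2 were *Ak4*, *Cdca7* and *LOC103689999*, and the 1 by limma voom was *Llph*. Of the 1088 genes 114 went beyond 2-fold; among the 953 with a mean of at least 1 CPM, 15 did, and the median absolute log2 fold change was 0.22. Of the 1088 genes, 447 stayed under the threshold when each of the 15 libraries was left out in turn, and 126 had a p under 0.05 with prep batch as a term. The number of genes was 551 within batch J alone and 1434 with NIC rat 1 included. Symbols were at hand for 7907 of the tested genes, through tables that list genes the study called changed in some comparison, this one among them. Of genes with a symbol, 11.9% were called, 5.36% higher and 6.51% lower, and counts for gene lists below are to be read against these shares; a list's measured members are those tested that could be matched by symbol. Below, a gene is said to have risen or fallen where its unadjusted p by edgeR was under 0.05, which over the 15 libraries survived adjustment for no gene.

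Among genes that rose, *Ak4* had the smallest p. It encodes a mitochondrial adenylate kinase, an enzyme family that interconverts adenine nucleotides. *Ak4* ranged from 2.77 to 5.60 CPM (median 3.95) in NIC and from 1.54 to 2.88 CPM (median 2.11) in SAL. SAL 9, at 2.88 CPM, was the only SAL library above the lowest NIC library, NIC 3, and NIC 5 was highest. The log2 fold change was 0.94 ± 0.17 (SE; exact permutation test, p = 0.000466; edgeR adjusted p = 0.367), and it was 0.61 within batch J. The other 4 adenylate kinase genes measured did not pass the test.

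*Rasl10b*, a small GTPase of the Ras family, had the largest rise of this group. It ranged from 6.57 to 28.1 CPM (median 12.6) in NIC and from 4.32 to 7.73 CPM (median 5.88) in SAL. The NIC libraries split: NIC 2, 3, 5 and 8 lay well above every SAL library, NIC 4 and 6 lay within the SAL range, NIC 7 lay just above it, and NIC 8 was highest. The log2 fold change was 1.34 ± 0.28 (exact permutation p = 0.00264). Without NIC 8 it was 1.11.

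*Map2k4*, a kinase that activates the stress kinases JNK and p38, was at 20.3 ± 2.42 against 15.2 ± 2.04 CPM (mean ± SD, n = 7 and 8), a log2 fold change of 0.42 (exact permutation p = 0.00109). *Nlrp3*, the sensor of the inflammasome that activates caspase-1, ranged from 2.54 to 4.08 CPM (median 3.13) in NIC and from 1.17 to 2.81 CPM (median 2.07) in SAL. The *Nlrp3* groups overlapped by 1 library of each, SAL 12 and NIC 3, and the log2 fold change was 0.71 ± 0.18 (exact permutation p = 0.000777). *Wipi2*, which binds phosphoinositide at forming autophagosomes, was at 65.0 ± 7.32 against 51.3 ± 5.60 CPM and kept a log2 fold change of 0.44 within batch J, against 0.34 over all 15 libraries. *Lclat1*, an acyltransferase of cardiolipin remodelling, was at 8.15 ± 1.10 against 5.98 ± 0.903 CPM, with 0.58 within batch J against 0.45.

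The remaining genes that rose with the smallest p were *Setd3* (the methyltransferase of a histidine in actin), *Sri* (the calcium-binding protein sorcin), *Hnrnpc* (a protein that binds nascent transcripts), *Ccdc107* and *Rnf11l1*. Their log2 fold changes lay between 0.18 for *Setd3* and 0.41 for *Hnrnpc*. *Rnf11l1* was the only gene with a symbol whose NIC libraries, from 86.1 to 112 CPM, all lay above the SAL libraries, from 63.5 to 85.4 CPM. In all, groups did not overlap for 5 of the 16879 genes (0.0296%).

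**Figure D1:**
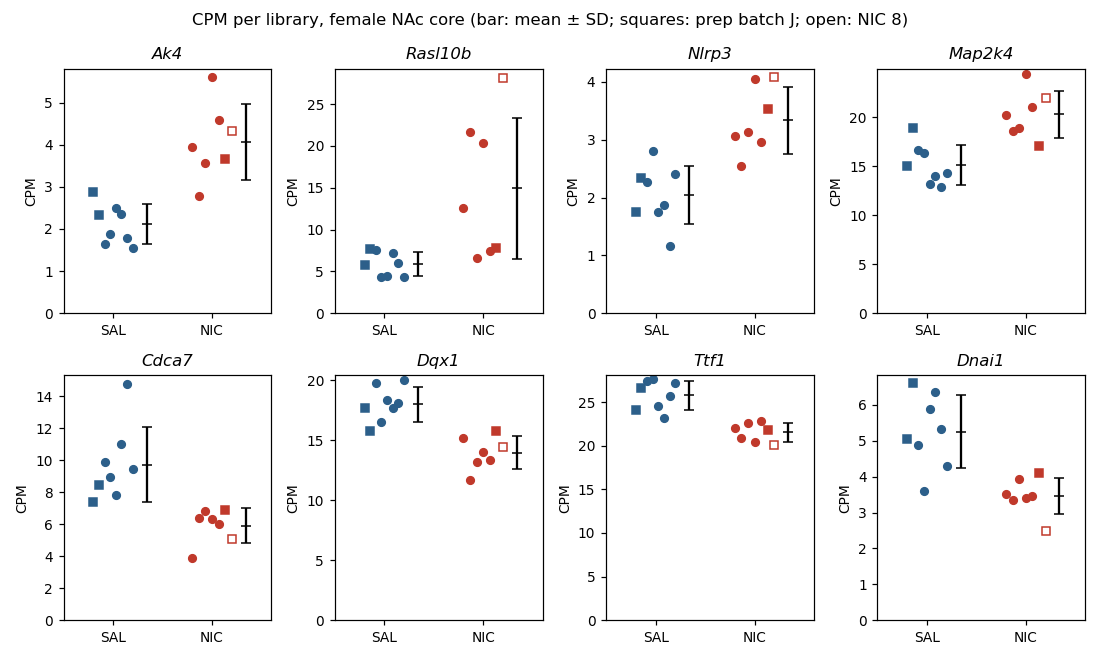
CPM of 8 of the named genes in each library of the female NAc core, 8 SAL and 7 NIC; squares are libraries of prep batch J, the open square is NIC 8, and bars give mean ± SD. *Cdca7* and *Ttf1* show no overlap between groups, *Rasl10b* is spread over the NIC libraries from 6.57 to 28.1 CPM, and in *Ak4* and *Nlrp3* 1 library of each group crosses.

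Among genes that fell, *Dqx1* (a helicase-like protein) and *Cdca7* (a cell division cycle associated gene induced by Myc) had the smallest p. *Cdca7* ranged from 3.90 to 6.91 CPM (median 6.30) in NIC and from 7.36 to 14.8 CPM (median 9.20) in SAL. Every NIC library lay below every SAL library, and SAL 15 was highest. The log2 fold change was -0.72 ± 0.15 (exact permutation test, p = 0.000311, the smallest that 6435 assignments allow; edgeR adjusted p = 0.527), and -0.41 within batch J. *Dqx1* was at 14.0 ± 1.37 against 18.0 ± 1.44 CPM, where NIC 7 was the only NIC library above the lowest SAL library, SAL 10, both of batch J. Its log2 fold change was -0.36 ± 0.08 (exact permutation p = 0.000466) and -0.15 within that batch.

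*Ttf1*, which ends transcription of ribosomal RNA genes by RNA polymerase I, ranged from 20.1 to 22.8 CPM (median 21.8) in NIC and from 23.2 to 27.7 CPM (median 26.1) in SAL. Its groups did not overlap either, and the log2 fold change was -0.26 ± 0.06, against -0.28 within batch J. *Piwil2*, a Piwi protein known from small RNA silencing in the germ line, was the third gene with NIC below SAL throughout (from 3.67 to 5.79 CPM (median 5.13) in NIC and from 5.84 to 7.71 CPM (median 6.27) in SAL); it falls outside the rule for naming genes and is named for this after its values were seen. *Trim17*, a ubiquitin ligase, was at 11.1 ± 1.28 against 14.2 ± 1.13 CPM with a log2 fold change of -0.36, and *Bckdk*, the kinase that inhibits breakdown of branched-chain amino acids, was at 48.7 ± 3.65 against 57.1 ± 3.51 CPM with -0.23. For both genes the values within batch J were close, -0.34 and -0.23.

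*Dnai1*, an intermediate chain of the dynein that drives motile cilia, ranged from 2.50 to 4.10 CPM (median 3.47) in NIC and from 3.62 to 6.62 CPM (median 5.19) in SAL. SAL 12 was the only SAL library within the NIC range, and NIC 8 was lowest. The log2 fold change was -0.60 ± 0.15 (exact permutation p = 0.00109) and -0.83 within batch J. *Sdcbp2*, the PDZ adaptor syntenin-2, was at 2.89 ± 0.538 against 4.42 ± 0.783 CPM, a log2 fold change of -0.61. *Plppr3* (a phospholipid phosphatase-related membrane protein of neurons) and *P3h3* (a collagen prolyl hydroxylase family member) fell by 0.23 and 0.25 on the log2 scale. The other 3 genes with the smallest p have only clone-based names: *AC134224.3* fell by 1.09, *AABR07035835.1* by 0.59 and *AABR07017846.1* by 0.58 on the log2 scale.

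Of 11 measured genes of dividing cells and young neurons 4 fell in NIC and none rose, where 6.51% of genes with a symbol fell: *Cdca7*, *Mki67* (the proliferation antigen Ki-67), *Top2a* (a DNA topoisomerase of dividing cells) and *Dlx1* (a homeobox factor of GABA-releasing neurons and their precursors). The median log2 fold change of the 11 was -0.33, against 0.00 over all genes, and 10 of 11 lay below 0. *Mki67* ranged from 1.30 to 4.90 CPM (median 2.40) in NIC and from 3.45 to 5.33 CPM (median 4.13) in SAL. NIC 4 and NIC 8 lay within the SAL range, and the other 5 NIC libraries lay below it. *Dlx1* had a log2 fold change of -0.32 ± 0.09 (exact permutation p = 0.00295; edgeR adjusted p = 0.732). With prep batch as a term none of the 11 fell, *Ccnd2* rose, and the median was -0.15. A fit of all 12 groups of the series together left 1 of the 4. Left-out libraries gave between 3 members called lower (without SAL 15) and 6 (without NIC 3, NIC 8 or SAL 16).

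Ependymal cells line the ventricles with motile cilia. All 7 measured markers of this cell type had log2 fold changes below 0, and 1 fell: *Tekt1*, a structural protein of ciliary microtubules, at 5.83 ± 1.56 against 8.05 ± 2.07 CPM (log2 fold change -0.46 ± 0.19). The median log2 fold change was -0.42. The summed level of the 7 markers ran from 31.3 to 67.4 CPM (median 54.3) in NIC and from 31.2 to 95.2 CPM (median 67.6) in SAL. SAL 9, 10, 11 and 14 lay above every NIC library, and the other 4 SAL libraries lay within or close to the NIC range. *Hydin*, a protein of the ciliary central pair, ranged from 10.7 to 26.6 CPM (median 18.9) in NIC and from 10.8 to 32.0 CPM (median 24.5) in SAL, with SAL 16 as low as NIC 7. The number called was 0 without NIC 7 or SAL 10, 2 without NIC 8, 3 without SAL 13 and 4 without SAL 16, and with 1 surrogate variable it was 0, with a median of -0.14. The part of ependymal cells in the lower *Dnai1* was not tested.

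In the NAc shell, whose 16 libraries come from the same 15 rats and NIC rat 1, the NIC difference of these genes had mostly the opposite sign. For the ependymal markers the median log2 fold change in shell was 0.55, all 7 lay above 0 and 4 rose (*Cfap126*, *Dynlrb2*, *Rsph1* and *Tekt1*), and for the proliferation list it was 0.22, with 10 of 11 above 0 and *Dlx1*, *Dcx* and *Pcna* risen, where 9.41% of genes with a symbol rose in shell. The difference between core and shell itself had an unadjusted p under 0.05 for 6 of the 7 ependymal markers and for 5 of the 11 proliferation genes, against 5.01% of all genes and 8.01% of those with a symbol. These counts are from a fit that treats the core and shell libraries of 1 rat as unrelated. Markers of 1 cell type can also vary together, so the counts are not of separate results. No gene passed adjustment for the difference between core and shell by edgeR (lowest adjusted p = 0.254; 846 genes at an unadjusted p under 0.05), and 5 did by DESeq2. The log2 fold change of *Dnai1* was -0.60 in core and 0.56 in shell (edgeR adjusted p = 0.254, and 0.480 with the rat as a block). *Dlx1* was at -0.32 in core and 0.52 in shell (edgeR adjusted p = 0.374, and 0.0905 with the block), and *Tekt1* at -0.46 and 0.42 (edgeR adjusted p = 0.940).

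**Figure D2:**
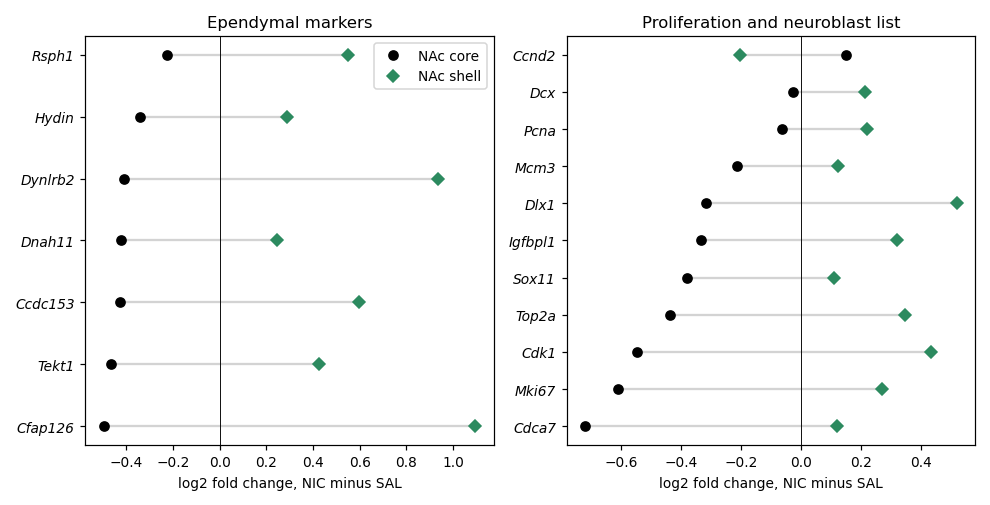
Log2 fold change of NIC minus SAL for each measured ependymal marker (left) and proliferation or neuroblast gene (right) in the female NAc core (circles) and NAc shell (diamonds), a grey line joining the values of 1 gene. All 7 ependymal markers lie below 0 in core and above 0 in shell; in the other list, *Ccnd2* alone lies above 0 in core and alone below 0 in shell.

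Of 10 measured genes that type I interferon induces, 5 fell in NIC and none rose, again against 6.51% of genes with a symbol: *Isg15* (a ubiquitin-like modifier), *Mx1* and *Oas1a* (antiviral effectors) and *Irf7* and *Irf9* (transcription factors of the response). The median log2 fold change was -0.24. *Isg15* ranged from 0.616 to 2.35 CPM (median 1.67) in NIC and from 1.64 to 5.89 CPM (median 2.74) in SAL. SAL 10 was highest, SAL 9, 14 and 16 lay inside the NIC range, and the log2 fold change was -0.87 ± 0.28 (exact permutation p = 0.00668; edgeR adjusted p = 0.732). *Mx1* ranged from 0.736 to 3.51 CPM (median 1.03) in NIC and from 0.788 to 10.5 CPM (median 1.83) in SAL, where SAL 10 stood far above the other SAL libraries; its log2 fold change was -1.06 ± 0.49 (exact permutation p = 0.139). *Oas1a* was also highest in SAL 10, at 5.45 CPM. Without SAL 10 *Mx1* was at -0.44 and *Oas1a* at -0.41, against -0.67 with it, and neither passed the test. Without SAL 10, SAL 12, SAL 13 or NIC 7, 2 of the 10 were called lower, without NIC 3 1, and without NIC 4, NIC 6 or NIC 8 3, while the median stayed between -0.31 and -0.20 for each library left out. With NIC rat 1 included *Irf9* alone was called. Within batch J, which holds SAL 10, it was *Oas1a* alone, with a median over the list of -0.36. The 5 other members, *Bst2*, *Ifitm3*, *Tap1*, *Psmb8* and *Stat2*, had log2 fold changes from -0.31 to 0.05. Shell and male core showed none of the 10 called in either direction, with medians of -0.05 and 0.09; the difference between core and shell had an unadjusted p under 0.05 for *Isg15* and *Mx1*, of which *Mx1* was lost with the rat as a block, and that between the sexes for *Isg15*, *Mx1*, *Oas1a* and *Bst2*.

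Interferon-induced genes are known to carry a promoter element bound by a complex that holds STAT2 and IRF9, whose core is a pair of GAAA repeats. The RefSeq promoter windows of GRCr8, from 250 bases before to 50 after the gene start, held 9 of the 10 list members, *Isg15* being the other. The letters GAAANNGAAA, searched on both strands as GAAANNGAAA or TTTCNNTTTC, occurred in 6 of these 9 windows, among them 2 of the 4 genes that fell, and in 3.92% of all 33469 windows. The other windows with the letters were those of *Bst2*, *Ifitm3*, *Psmb8* and *Tap1*, which did not pass the test. Genes of this list are known for the element, so its share among them is no result of the NIC comparison. The matches of *Oas1a* and *Irf7*, which fell, are shown with those of *Bst2*. Capitals mark the match, overlapping matches run together, and each stretch reads 5′ to 3′ on the strand of its gene.
Oas1a (chr12:41330405-41330460, plus strand): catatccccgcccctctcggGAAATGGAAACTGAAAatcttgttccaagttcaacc
Irf7 (chr1:205800063-205800112, minus strand): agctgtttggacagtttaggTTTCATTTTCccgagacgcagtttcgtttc
Bst2 (chr16:18255063-18255118, minus strand): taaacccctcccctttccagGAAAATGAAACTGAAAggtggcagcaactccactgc
*Mx1* and *Irf9* had no match within these windows.

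Of 10 measured markers of microglia, the resident macrophages of brain, 4 rose and none fell, where 5.36% of genes with a symbol rose: among the 4 were *Cx3cr1* (the fractalkine receptor), *Itgam* (the integrin CD11b) and *Ctss* (a lysosomal protease), with a median log2 fold change of 0.10 over the 10. *Itgam* was at 7.23 ± 0.856 against 6.00 ± 0.698 CPM (log2 fold change 0.27 ± 0.11; exact permutation p = 0.0107), and *Cx3cr1* at 11.5 ± 1.97 against 8.93 ± 2.05 CPM (0.36 ± 0.15). *Csf1r*, *Tmem119* and *Tyrobp*, further markers of the same cells, were at 0.02, 0.00 and -0.04 and did not pass the test. The summed level of the 10 markers ran from 630.5 to 720.4 CPM (median 665) in NIC and from 573 to 678 CPM (median 618) in SAL. Within batch J none was called, and *Cx3cr1* and *Ctss* had log2 fold changes of -0.01 and -0.05 there. *Nlrp3*, known from microglia, kept 0.90 within batch J; the part of microglia in its rise was not tested.

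At the synapse, 4 of 22 measured genes of vesicle release rose and none fell, where 5.36% of genes with a symbol rose. Of the 22 genes 20 lay above 0, with a median of 0.09. The 4 were *Rims1* and *Rims4* (scaffolds of the active zone), *Syn1* (synapsin, which tethers vesicles) and *Cplx2* (complexin, which clamps the fusion machinery). *Rims1* ranged from 43.1 to 88.8 CPM (median 59.0) in NIC and from 33.7 to 53.9 CPM (median 47.4) in SAL, with NIC 5 highest, and its log2 fold change was 0.37 ± 0.13 (exact permutation p = 0.0272). *Cplx2* was highest in NIC 5 as well, at 456 CPM against 265 CPM in the highest SAL library. Without NIC 5 *Cplx2* and *Rims4* were at 0.17 and 0.28, against 0.33 and 0.43 with it, and did not pass the test. Without NIC 5, NIC 6 or SAL 13, 2 of the 22 were called higher, and without NIC 8 and without SAL 16 the numbers were 9 and 8, so the count turned on single libraries. Within batch J *Rims1* and *Syn1* were called higher (0.40 and 0.30), as was *Unc13a*, and *Syt2* was lower. With prep batch as a term *Unc13a* rose and *Syt2* fell, while *Rims1* and *Syn1* had log2 fold changes of 0.40 and 0.31 and did not pass the test, and the median of the list was -0.03. Of 17 postsynaptic scaffold genes *Shank1* and *Camk2a* rose (0.43 and 0.37; exact permutation p = 0.0541 and 0.159). Both were highest in NIC 5, and without it they were at 0.26 and 0.15 and did not pass the test. Of 11 ionotropic glutamate receptor subunits *Gria2*, which makes AMPA receptors impermeable to calcium, fell, with a log2 fold change of -0.27 ± 0.10. Summed markers of cortical projection neurons, which the dissection could hold, ran from 1827 to 3212 CPM (median 2503) in NIC and from 1738 to 2791 CPM (median 2111) in SAL; their part in these values was not tested.

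**Figure D3:**
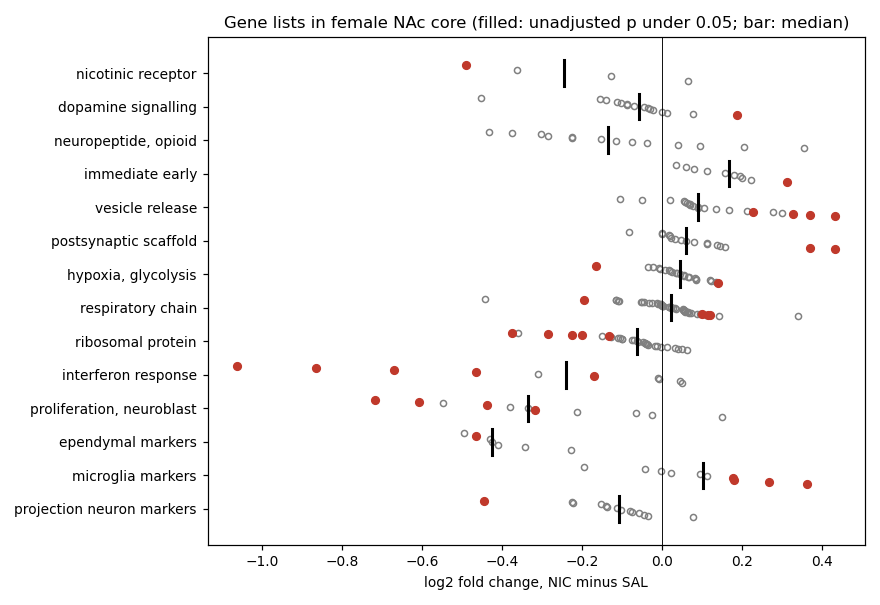
Log2 fold change of NIC minus SAL in the female NAc core for each measured member of 14 gene lists (1 circle a gene, filled where the unadjusted p was under 0.05, with the list's median as a bar). Interferon, proliferation and ependymal genes lie to the left, with medians of -0.24, -0.33 and -0.42. All 10 immediate early genes measured, of 26 listed, lie above 0.

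Of 30 measured cytosolic ribosomal protein genes 5 fell and none rose, where 6.51% of genes with a symbol fell. Of the 30 genes 25 lay below 0, with a median of -0.06. The 5 all encode proteins of the small subunit, among them *Rps14* (-0.20), *Rps19* (-0.23), *Rps28* (-0.28) and *Rps21* (-0.38, and -0.25 without NIC 8). *Rps14* ranged from 368 to 446 CPM (median 386) in NIC and from 400.1 to 497 CPM (median 458) in SAL, with NIC 2, 6 and 7 inside the SAL range. Within batch J none was called and the median was 0.10, of the opposite sign. Genes of this family have many processed copies in the genome, among which reads may be shared.

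Among genes of energy metabolism the calls were near the share of all genes with a symbol. Of 47 respiratory chain genes 3 rose (*Sdha*, *Atp5pd* and *Ndufb4*, by no more than 0.12 on the log2 scale) and *Uqcr10* fell, with a median of 0.02. The balance depended on the fit: with prep batch as a term none was called higher and 5 lower (median -0.06). Without NIC 8, 6 were called higher and none lower (median 0.04). Of 23 genes of hypoxia and glycolysis *P4ha1* rose (0.14) and *Pfkfb2*, which sets the level of the glycolytic activator fructose 2,6-bisphosphate, fell (-0.16). In the male NAc core 27 of the 47 respiratory chain genes were called lower with NIC in males and none higher, where 7.75% of genes with a symbol were lower there, and the difference between females and males had an unadjusted p under 0.05 for 19 of the 47, against 8.89% of all genes and 14.8% of those with a symbol. For hypoxia and glycolysis it was 8 of 23. In male core prep batch C alone held rats of both groups, so the male counts and these differences carry the limit of batch as well. No gene passed adjustment for the difference between the sexes by edgeR (lowest adjusted p = 0.454; 1500 genes at an unadjusted p under 0.05), and 0 did by DESeq2, with 1495 at an unadjusted p under 0.05.

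Of 16 nicotinic subunits listed, 4 could be matched by symbol, and the other 12 were not analysed here. Of the 4, *Chrna1*, the alpha subunit known from muscle, fell. It ranged from 2.11 to 4.27 CPM (median 3.53) in NIC and from 3.51 to 5.70 CPM (median 4.94) in SAL, with SAL 10, 12 and 16 inside the NIC range, and its log2 fold change was -0.49 ± 0.15 (exact permutation p = 0.00451; edgeR adjusted p = 0.732). *Chrnb2*, a subunit of the high-affinity brain receptor, was at 14.2 ± 3.17 against 13.6 ± 2.56 CPM, with a log2 fold change of 0.07 ± 0.14 that did not pass the test and was -0.33 within batch J. *Chrna3* and *Chrnb4* lay under 2 CPM in every library, where few reads decide a value, and did not pass the test. Of the 4 muscarinic receptors *Chrm2* rose, at 1.03 ± 0.416 against 0.619 ± 0.225 CPM. With 1 called gene of 4, these lists are too short to be set against the share of all genes.

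Dopamine signalling showed 1 called gene of 16: *Rgs4*, which speeds the switching-off of G proteins, rose, at 284 ± 30.7 against 249 ± 25.0 CPM (log2 fold change 0.19 ± 0.07). *Drd1* and *Drd2*, the main dopamine receptors of the projection neurons, had log2 fold changes of -0.04 ± 0.15 and -0.11 ± 0.17, and *Ppp1r1b* of -0.10 ± 0.17, none of which passed the test. Of 14 projection neuron markers, 13 lay below 0 with a median of -0.11, and *Isl1*, a factor of striatal neuron development, fell (-0.45). The median was 0.12 with prep batch as a term, 0.03 with 1 surrogate variable and -0.21 without NIC 8, so its sign depended on the fit. In shell 13 of the 14 were called lower with NIC, where 9.69% of genes with a symbol were lower there, and the median was -0.33, but the difference between core and shell had an unadjusted p under 0.05 for *Pde10a* alone. None of 14 neuropeptide and opioid genes passed the test, with a median of -0.13. *Pdyn* and *Tac1*, which encode the dynorphin and substance P precursors, were at -0.15 ± 0.13 and -0.22 ± 0.14. With prep batch as a term 5 of the 14 were called lower and none higher, with a median of -0.29. Leaving out single libraries gave 0 to 5 called.

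Of 26 listed immediate early genes, which follow neuronal activity within minutes, 10 were measured and the others were not analysed. All 10 had log2 fold changes above 0, with a median of 0.17, and leaving out single libraries gave 0 to 4 called. In shell 5 of the 10 lay above 0 (median -0.01), and in male core 3 did (median -0.08). In female core *Dusp6*, a phosphatase that ends ERK signalling, was the 1 gene of the 10 that rose, at 32.1 ± 7.69 against 25.9 ± 2.76 CPM (0.31 ± 0.13; exact permutation p = 0.0813). *Nr4a2* spread from 14.0 to 67.8 CPM within NIC and from 20.1 to 76.0 CPM within SAL, and was not called. Of 10 clock genes *Hlf* and *Bhlhe40* rose (0.52 ± 0.17 and 0.29 ± 0.12), while *Per1* and *Dbp*, with strong daily rhythms, were at 0.01 and 0.04. With prep batch as a term 4 of the 10 were called higher, and the median was 0.22 against 0.03. *Hlf* was at 0.93 within batch J and at -0.36 in male core (edgeR adjusted p of the difference between the sexes = 0.516).

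Other lists held 1 or 2 calls each. *Hspa9* (a mitochondrial chaperone), *Xbp1* (the unfolded protein response factor), *Plin4* (a lipid droplet protein), *Atp1b2* (an astrocyte sodium pump subunit), *Emcn* (an endothelial sialomucin) and *Hba-a3* (an alpha globin) rose, by 0.17 to 0.58 on the log2 scale. *Hsf1* (the heat shock factor), *Kdm1a* and *Dnmt1* (a histone demethylase and the maintenance DNA methyltransferase), *Prkcd* and *Hcrt* (the orexin precursor, under 1 CPM on average in each group) fell. No member that could be matched by symbol passed the test among metabotropic glutamate, GABA, calcium channel and sex steroid receptor genes, or among markers of dopaminergic and cholinergic neurons, interneurons, cortical projection neurons, oligodendrocytes and their precursors, perivascular macrophages, mural cells, choroid plexus and meningeal fibroblasts.

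The largest fold changes belonged to genes that were near 0 in some libraries and not in others. *LOC103689999* was at 66.3 CPM in NIC 2 and 28.9 CPM in NIC 6 and at 0 in the other 13 libraries, so no fold is given. *LOC108348096* was at 0 in 2 of 7 NIC and 4 of 8 SAL libraries and reached 123 CPM in NIC 2, against 20.0 CPM in the highest SAL library. *B9d1*, a protein of the base of the cilium, was at 0 in 6 of 7 NIC and 3 of 8 SAL libraries and reached 9.78 CPM in SAL 16. *Llph*, a nucleolar protein of ribosome assembly, was detected in all 7 NIC libraries, from 0.432 to 2.13 CPM or 9 to 39 counts, and in 1 of 8 SAL libraries, SAL 12, with 12 counts (exact permutation p = 0.000466; adjusted p = 0.0484 by limma voom and 0.367 by edgeR). In shell these genes were also on in some libraries and at 0 in others, in part in the same rats and in part not. *Llph* was at 0 in 4 of 8 NIC and 5 of 8 SAL shell libraries, and in 2 of 8 NIC and 7 of 8 SAL libraries of the VTA; in male core its log2 fold change was 3.56, with an unadjusted p under 0.05. *B9d1* was on in both regions of NIC 3 and SAL 10, and on in shell and at 0 in core for SAL 12, 13 and 14. Counts of such genes are estimates that divide reads among similar transcripts, and they are uncertain.

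Of 5 clone-named genes described here that fell in core, 4 had log2 fold changes below 0 in shell and male core as well; *AABR07017846.1*, at -0.17 and -0.09, was nearest 0 there. *AABR07000398.1*, among the most abundant transcripts, was between 2593 and 4836 CPM in SAL, whereas NIC 2, 3, 4 and 8 had 299 to 715 CPM and NIC 5, 6 and 7 had 2070 to 3393 CPM. Its log2 fold change was -1.26 ± 0.44 in core, -0.97 in shell and -0.91 in male core. *AC130741.1* was at -1.54, -1.70 and -1.21 and *AC134224.3* at -1.09, -0.62 and -0.50 in the same order. Differences between core and shell had adjusted p of 0.984, 0.995 and 0.965 (edgeR). Without NIC 6 the core value of *AC130741.1* was -2.50. Within batch J the core values were -0.37, -0.49 and -0.58.

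Set against shell and male core, the 24 genes with the smallest p in core all had values nearer 0 in both other sets. In shell 10 of the 12 higher and 8 of the 12 lower genes had the same sign, and in male core 6 and 4; since the genes were chosen in core, smaller values elsewhere are built into the comparison and no test is drawn from it. *Rasl10b* was at -0.06 in shell (edgeR adjusted p of the difference from core = 0.940) and at 1.01 in male core (edgeR adjusted p of the difference between the sexes = 0.804). *Ak4* was at 0.31 and 0.13, *Nlrp3* at -0.08 and 0.15, and *Cdca7* at 0.12 and 0.17. *Wipi2* was at -0.09 in males (edgeR adjusted p of the difference = 0.454).

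**Figure D4:**
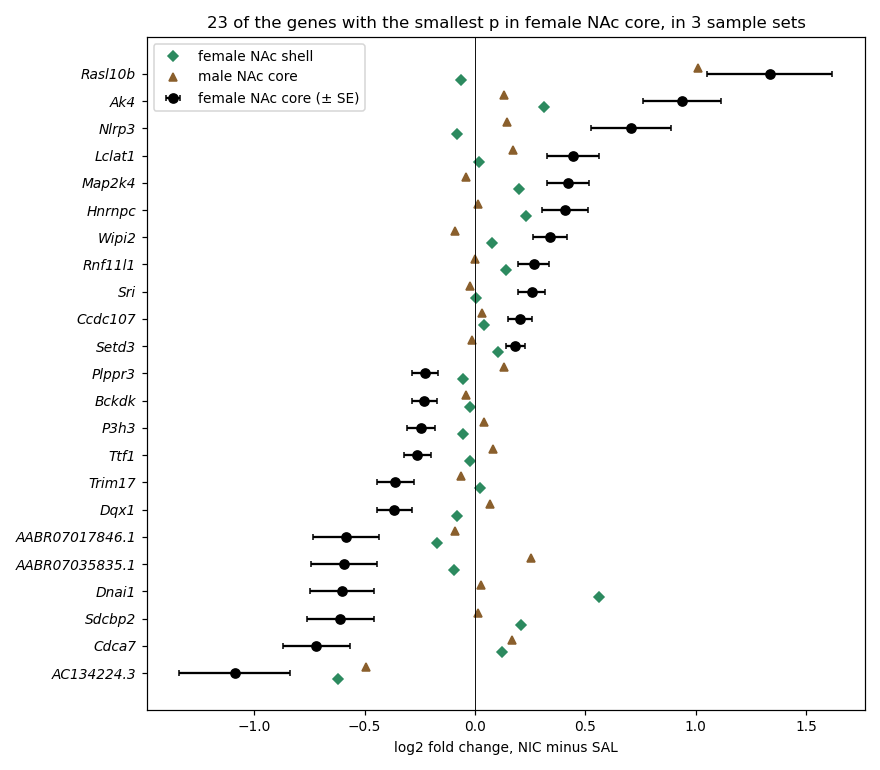
Log2 fold change of NIC minus SAL for 23 of the 24 genes with the smallest p in the female NAc core (black circles, ± SE), with the values of the same genes in female NAc shell (diamonds) and male NAc core (triangles). *Rasl10b* lies at 1.01 in male core but at -0.06 in shell, and *Dnai1* lies at 0.56 in shell against -0.60 in core.

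The 4 libraries of batch J were among those that chose the 24 genes, so a shared direction there is largely built in; all 24 had it. With batch as a term 5 of the 12 higher and 3 of the 12 lower genes had a p under 0.05: *Ak4*, *Rasl10b*, *Wipi2*, *Nlrp3* and *Lclat1*, and *Ttf1*, *Dnai1* and *Plppr3*. Relative to the value over all libraries, that within the batch was smallest for *P3h3* (-0.06 against -0.25) and *Hnrnpc* (0.11 against 0.41). When each of the 15 libraries was left out in turn, all 24 stayed at an unadjusted p under 0.05.

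**Figure D5:**
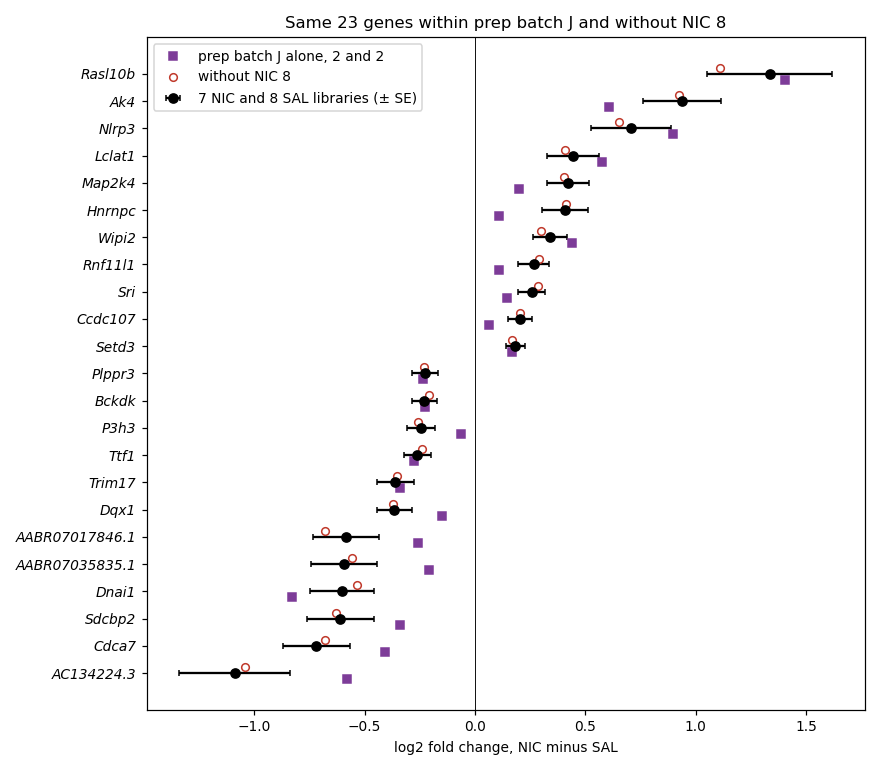
Log2 fold change of NIC minus SAL for the same 23 genes over all 15 libraries (black circles, ± SE), within prep batch J alone (squares, 2 NIC and 2 SAL libraries) and without NIC 8 (open circles). *Dqx1* moves from -0.36 to -0.15 within the batch while *Nlrp3* moves from 0.71 to 0.90.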

How the data were processed

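The authors trimmed paired-end reads with fastp 0.20.0, quantified them with Salmon 0.12.0 on Rnor 6, and, after gene-level summing in tximport, deposited whole-number estimated counts without normalization; how they were rounded is not given in the sources used here. The table held 17637 genes and 96 libraries, all with labels. Tested genes had normalized counts above 10 in 3 or more of 94 libraries; the test was edgeR 4.0.16 in R 4.3.3 (TMM, quasi-likelihood, no covariate, Benjamini-Hochberg adjustment). CPM were scaled with the TMM factors, and errors are SD over rats. The two-sided exact permutation test used log2 CPM (prior count 2) over all 6435 assignments of the 15 libraries. Differences between core and shell and between the sexes were interaction terms over 31 libraries each. Libraries of core and shell with 1 number come from 1 rat: their centred values correlated with a median r of 0.181 (lowest -0.21; other rats 0.00917). DESeq2 1.42.0, limma 3.58.1 and sva 3.50.0 served as alternatives, with other filters and scalings, prep batch, 1 surrogate variable and leaving out each library. On simulated counts for this comparison (16849 genes), 58 of 100 genes changed by a log2 of 0.5 and 88 of 100 changed by 1 were recovered at an adjusted p under 0.05. The simulation held no prep batch difference and changed only genes of at least 1 CPM, so these shares need not hold for the real libraries. No pair of the 15 libraries agreed within sampling noise (chi-square per degree of freedom of at least 7.16). The genes named are the 12 of smallest p in each direction with a symbol and at least 1 CPM, the 3 of largest change in each, list members with p under 0.05, nicotinic subunits, any gene passing adjustment in a tool, and *Ak4*, *Llph* and *Dqx1*. The comparison, the rule and the gene lists were chosen with earlier results of these data known. Symbols came from the study's supplementary tables and matched 7926 of 17637 identifiers; fold changes and p-values of the authors held there were not used. Some items the rule names are not reported here.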

Additional observations from a re-analysis of the deposited data

Results flagged for a closer look

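Among the 60 groups examined (30 named genes, NIC and SAL), 3 held a library that stood apart from the rest of its group by Dixon's criterion; chance alone marks about 1 in 20 groups. *Llph* was at 0.648 CPM in SAL 12 and at 0 in the other 7 SAL libraries. *B9d1* was at 0.564 CPM in NIC 3 and at 0 in the other 6 NIC libraries. *AC130741.1* was at 71.9 CPM in NIC 6, against at most 20.4 CPM in the other NIC libraries. Data outside the comparison gave 2 signals in the library labelled NAc core of NIC rat 1: *Th* was at 331 CPM, against at most 3.87 CPM in the 15 libraries used, and *Slc6a3* at 385 CPM, against at most 0.919 CPM.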

How the results depend on the processing

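The number of genes at an unadjusted p under 0.05 stayed within 1.5 times of 1088 under every setting but 1: it was 551 within prep batch J, which leaves 2 libraries a group. With each library left out in turn it lay between 868 (without NIC 5) and 1341 (without NIC 2), and NIC 8, which stood apart, left 1337. Prep batch as a term gave 774 genes. Including NIC rat 1 gave 1434 and moved the share of higher genes from 44.6% to 58.1%. The fit of core against shell with the rat as a block gave 845 genes in place of 846, and 8 of 82 named genes crossed the unadjusted threshold for that difference, *Map2k4*, *Plin4*, *AABR07017846.1* and *AABR07000398.1* to under it and *Ccdc107*, *Prkcd*, *Mx1* and *Chrnb4* to over it. No gene passed adjustment with the block (lowest adjusted p = 0.0659 by edgeR). Signs turned in 14 cases. With prep batch as a term, and within batch J, the log2 fold change became -0.0461 and -0.0502 for *Ctss*, -0.00421 and -0.00829 for *Cx3cr1*, -0.0306 and -0.0349 for *Hspa9*, -0.0186 and -0.0228 for *Atp5pd*, and -0.326 and -0.33 for *Chrnb2*. With single libraries left out *Chrnb2* lay between -0.0453 (without NIC 5) and 0.116. With NIC rat 1 included *Chrnb4* was at 0.411 and *Chrna3* at 0.374, and with 1 surrogate variable *Chrna3* was at 0.025. With prep batch as a term 57 of 81 named genes kept their sign but lost the threshold, and within batch J 58 of 81; the 2 libraries a group that carry these fits are fewer than the 7 and 8 of the comparison. With 1 library left out in turn, 131 values lost it and 1098 kept their side. DESeq2's size factors and no count filter moved no call of a named gene.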

Other observations

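*LOC100362965*, chosen after its values were seen, took 2 separate levels that followed the rat and not the region or treatment. In 8 of the 16 female rats it lay between 0.996 and 4.43 CPM in NAc core, NAc shell and VTA alike, and in the other 8 it did not exceed 0.102 CPM in any of the 3 regions. The rats with high levels were 4 NIC and 4 SAL rats, numbers 3 to 6 and 11 to 14, and those with low levels 4 NIC and 4 SAL rats. Libraries with the same rat number thus agreed across regions, NIC rat 1 included, and all 4 rats of prep batch J with both groups (NIC 7 and 8, SAL 9 and 10) were of the low level.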
